A study of Mus musculus with 12 samples.

Results

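The genes described here are 8 enzymes of cholesterol synthesis, Hmgcs1, Mvd, Idi1, Fdps, Fdft1, Sqle, Lss and Cyp51, out of 20661 genes in the count files. They were chosen by name, as steps of the mevalonate and sterol pathway, with earlier results of these data known. All 8 passed the filter on low counts in every test. RNA and ribosome footprints, the short mRNA stretches that a ribosome shields from nuclease, were sequenced from mouse embryonic fibroblasts (MEFs) in 3 groups with 2 replicates per group and assay, 12 libraries in all. WT-shSCR cells were wild type and carried a lentiviral scrambled shRNA. WT-shARF cells were wild type and carried an shRNA against ARF, the tumor suppressor encoded by an alternative reading frame of Cdkn2a. Arf-/- shSCR cells lacked Arf in the germline and carried the scrambled shRNA. All cells were at passage 4, had been transduced with lentivirus and, per the study's methods, selected with puromycin. The labels give the strain C57BL/6J for the wild-type cells where the study's methods give B6129SF2/J, and the Arf-/- cells came from the strain B6.129X1-Cdkn2atm1Cjs/KaiJ, so that the genotype and the strain cannot be told apart. Nothing in the labels says that replicates came from separate embryos or cultures, and p-values measure only the spread between these libraries, which may be technical.

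Cells make cholesterol from acetyl-CoA through mevalonate and squalene. When membrane sterol is low, the protein SCAP carries the precursors of the SREBP transcription factors from the endoplasmic reticulum to the Golgi, where proteases release the active factor. INSIG proteins hold the complex back when sterol is plentiful. SREBP-2, the product of Srebf2, binds sterol regulatory elements near the genes of nearly every enzyme of the pathway, which is the textbook reason why these mRNAs are measured as a group. The pathway also feeds prenylation, dolichol and ubiquinone through the farnesyl pyrophosphate that Fdps makes.

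The promoters are shown because genes of this pathway are known for sterol regulatory elements. The part of such elements in the changes given below was not tested. RefSeq windows of GRCm38.p6 were found for 5 of the 8 genes, and Fdps, Fdft1 and Sqle had none. Each window holds 250 bases before and 50 after the annotated start, and both strands were searched for TCACNCCA, a core of the sterol regulatory element, for its looser form TCACNNCA, which includes it, for CCAAT, the NF-Y box, and for GGGCGG, the Sp1 box. The last 150 bases before the start follow, 5′ to 3′ on the strand of the gene, with matches in capitals.
Hmgcs1 (chr13:119690201-119690350, plus strand): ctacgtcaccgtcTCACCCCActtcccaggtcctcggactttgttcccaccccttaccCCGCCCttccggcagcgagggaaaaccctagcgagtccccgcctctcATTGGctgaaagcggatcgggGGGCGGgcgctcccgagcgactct
Mvd (chr8:122443423-122443572, minus strand): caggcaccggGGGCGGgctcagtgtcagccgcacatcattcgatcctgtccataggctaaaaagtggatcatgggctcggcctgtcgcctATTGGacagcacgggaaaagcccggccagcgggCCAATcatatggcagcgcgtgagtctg
Idi1 (chr13:8885456-8885605, plus strand): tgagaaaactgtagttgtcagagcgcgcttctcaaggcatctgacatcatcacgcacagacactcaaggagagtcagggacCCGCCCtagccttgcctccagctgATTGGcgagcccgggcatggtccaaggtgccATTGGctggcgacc
Lss (chr10:76531455-76531604, plus strand): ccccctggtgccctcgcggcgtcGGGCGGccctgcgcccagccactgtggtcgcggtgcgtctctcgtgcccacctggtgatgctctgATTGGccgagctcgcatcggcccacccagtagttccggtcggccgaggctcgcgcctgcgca
Cyp51 (chr5:4104698-4104847, minus strand): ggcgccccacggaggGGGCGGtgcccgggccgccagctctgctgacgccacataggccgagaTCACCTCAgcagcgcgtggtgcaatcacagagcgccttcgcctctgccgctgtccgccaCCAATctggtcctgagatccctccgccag
The 8-letter core occurred once, in Hmgcs1, as TCACCCCA at 137 bases before the start, and 4.36% of 32851 windows of the same length held it. The looser form added TCACCTCA in Cyp51 at 88 bases before the start, against 13.8% of all windows. CCAAT was found in each of the 5 windows, 4 times in Hmgcs1, and GGGCGG also in each of the 5, while 37.4% and 35.7% of all windows held them. None of the 5 annotated starts had the C followed by at least 4 pyrimidines that marks a 5′-TOP mRNA, a class that the study is about and that 2.51% of all annotated starts fitted. This start was read from RefSeq alone. GENCODE places the start of Hmgcs1, Idi1, Lss and Cyp51 at other bases, which were not searched. A match is a run of letters and no measure of binding.

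Gene counts per library ranged from 1578627 to 3989908 for RNA and from 2544319 to 5157572 for footprints. Counts of Cdkn2a went against a label: RNA was 45.1 and 42.2 CPM (counts per 1000000, TMM-scaled within an assay) in WT-shSCR, 27.8 and 32.4 CPM in Arf-/- shSCR, and in cells labelled WT-shARF it stood at 648 and 672 CPM, where the label would give a lower value. Footprints of Cdkn2a were 93.6 and 66.4 CPM in WT-shSCR and 39.7 and 34.5 CPM in Arf-/- shSCR. In cells labelled WT-shARF they were 535 and 742 CPM, so they went against the label too. The symbol also collects reads of the other product of this locus, so it checks ARF only in part. The study reports an immunoblot with knockdown and knockout of ARF in MEFs, which measures protein and not RNA. Every fibroblast marker had counts in each group and assay, and the sum of 10 was lowest in Arf-/- shSCR. It was 21454 and 24908 CPM of RNA in WT-shSCR, 22433 and 22256 CPM in cells labelled WT-shARF, and 17569 and 16329 CPM in Arf-/- shSCR. The 10 macrophage markers summed to 544 and 537 CPM of RNA in WT-shSCR, 267 and 195 CPM in cells labelled WT-shARF, and 60.4 and 87.7 CPM in Arf-/- shSCR. The 8 mesothelial or epithelial markers summed to 96.9 and 98.0, 57.2 and 68.1, and 164 and 185 CPM of RNA in the same order, and Upk3b, Lrrn4 and Epcam were at 0 in the WT-shSCR footprints. In bulk samples such as these, fewer cells of a type and less RNA per cell cannot be told apart.

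Per kilobase of coding sequence, Fdps had the most RNA of the 8 in WT-shSCR, at 181 CPM per kb. Cyp51 at 64.2, Fdft1 at 62.7 and Hmgcs1 at 48.0 CPM per kb of RNA followed, then Sqle at 31.6, Mvd at 19.0, Idi1 at 14.4 and Lss at 13.8. Among neighbours in that order the libraries of Cyp51 and Fdft1, and those of Idi1 and Lss, overlapped, so that those places are not fixed. In footprints the order was Fdps at 172, Hmgcs1 at 155, Cyp51 at 91.4, Idi1 at 73.7, Fdft1 at 58.2, Sqle at 47.6, Lss at 18.9 and Mvd at 17.7 CPM per kb, with overlap between Fdps and Hmgcs1, between Cyp51 and Idi1, and between Lss and Mvd. Reads with more than one place in the genome were not counted. Words of 28 bases from the coding sequence that also occur in transcripts of other genes made up 98.4% for Fdps, 79.6% for Idi1, 52.8% for Fdft1, 32.3% for Hmgcs1, 6.35% for Lss and 0% for Mvd, Sqle and Cyp51. Whether those transcripts lie at another place in the genome was not checked, so the share is no measure of reads lost. The levels of Fdps, Idi1, Fdft1 and Hmgcs1 are uncertain, and how many of their reads were left out in each library was not measured.

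**Figure D1:**
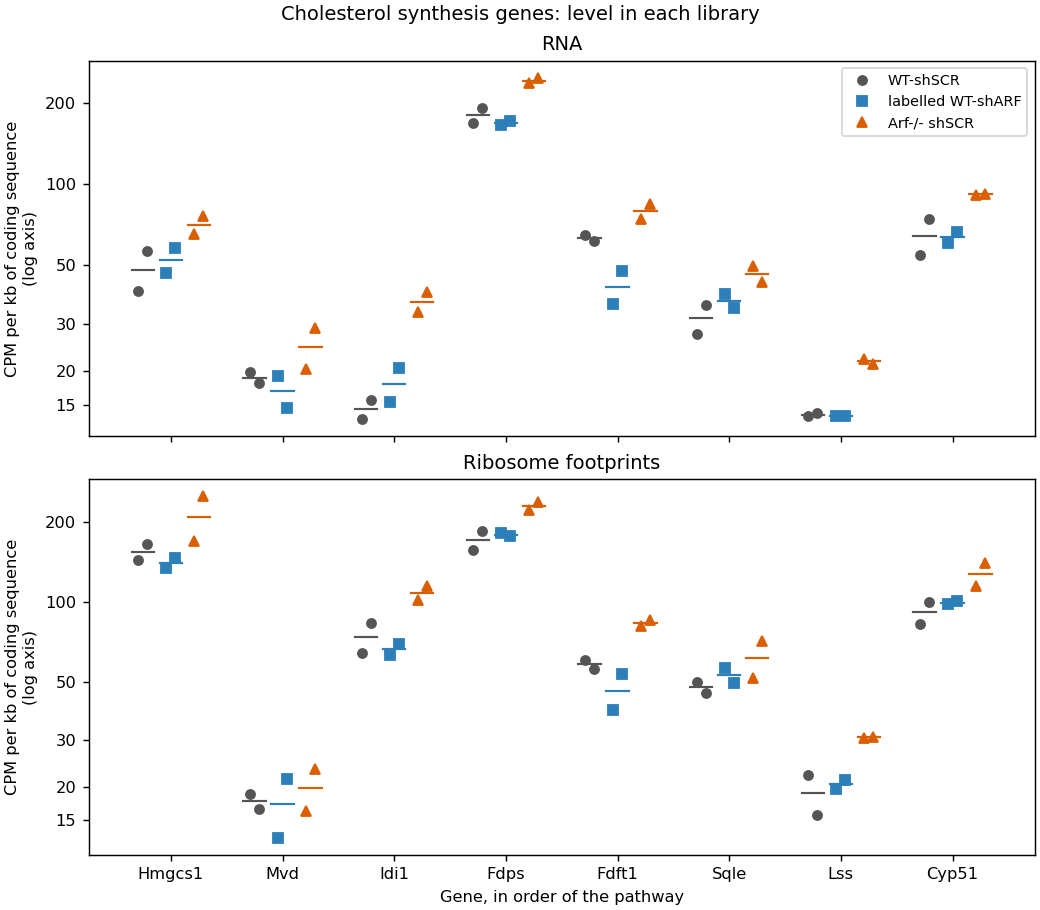
Level of each cholesterol synthesis gene in RNA (top) and footprints (bottom), in CPM per kilobase of coding sequence on a log axis; each point is 1 library and each bar the mean of 2. The Arf-/- shSCR points lie above both WT-shSCR points for all 8 genes in RNA and for 7 in footprints, Mvd being the exception.

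The comparison of Arf-/- shSCR with WT-shSCR asks how the genes differed in cells without Arf. All 8 RNAs and all 8 footprint levels had a fitted change above 0, with a median log2 fold change of 0.54 for RNA and 0.48 for footprints, beside -0.00 for all genes tested in each assay. Of the footprints, 6 of 8 rose at an adjusted p under 0.05 (edgeR quasi-likelihood test, Benjamini-Hochberg over all genes), those of Hmgcs1, Idi1, Fdps, Fdft1, Lss and Cyp51, where 9.57% of all genes rose. Of the RNAs, that of Idi1 alone passed, 1 of 8, where 3.94% of all genes rose, and 6 of 8 were higher at an unadjusted p under 0.05, as were 11% of all genes. Both Arf-/- shSCR libraries lay above both WT-shSCR libraries for 8 of 8 RNAs and 7 of 8 footprint levels, beside 25.3% and 27.5% of all genes.

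Hmgcs1 (chr13:119690379-119708260 in GRCm38) encodes cytosolic HMG-CoA synthase, which joins acetoacetyl-CoA and acetyl-CoA at the head of the pathway. Its footprints were 225 and 258 CPM in WT-shSCR, 210.1 and 228 CPM in cells labelled WT-shARF, and 265 and 391 CPM in Arf-/- shSCR. Its RNA was 62.1 and 87.6, 72.8 and 89.8, and 102 and 118 CPM in the same order. The Arf-/- shSCR libraries were the highest in both assays, yet replicate 1 of the footprints lay close to the WT-shSCR libraries. The footprints rose by 0.46 ± 0.13 (log2, SE, n = 2 per group, adjusted p = 0.0111), a call that was lost with DESeq2 (adjusted p = 0.375) and without Arf-/- shSCR replicate 2, where the change was 0.16. The RNA change was 0.57 ± 0.20 (adjusted p = 0.0992).

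Mvd (chr8:122433601-122443422) encodes mevalonate diphosphate decarboxylase, which makes isopentenyl pyrophosphate. It had between 36 and 156 counts per library. RNA was 25.7 and 23.4 CPM in WT-shSCR, 24.8 and 18.9 CPM in cells labelled WT-shARF, and 26.4 and 37.6 CPM in Arf-/- shSCR. Footprints were 24.3 and 21.3, 16.6 and 27.8, and 21.0 and 30.2 CPM in that order, and the groups overlapped. The changes were 0.36 ± 0.29 in RNA (adjusted p = 0.49) and 0.18 ± 0.27 in footprints (adjusted p = 0.72), and without Arf-/- shSCR replicate 2 the footprint change was -0.10.

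Idi1 (chr13:8885501-8892451) encodes the isomerase that converts isopentenyl to dimethylallyl pyrophosphate. Its RNA was 12.1 and 14.3 CPM in WT-shSCR, 14.0 and 18.9 CPM in cells labelled WT-shARF, and 30.4 and 36.3 CPM in Arf-/- shSCR. Footprints were 58.5 and 76.3, 57.9 and 63.3, and 93.2 and 105 CPM. In both assays the Arf-/- shSCR libraries stood above all 4 others. The RNA rose by 1.35 ± 0.32, or 2.54-fold (adjusted p = 0.0116), and the footprints by 0.58 ± 0.16, or 1.49-fold (adjusted p = 0.00935). Raw RNA counts were 32 and 22 in WT-shSCR and 83 and 84 in Arf-/- shSCR, and the RNA call was lost without WT-shSCR replicate 1 (change 1.22, adjusted p = 0.136) or replicate 2 (1.46, adjusted p = 0.0679).

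Fdps (chr3:89093588-89101959) encodes farnesyl pyrophosphate synthase, the branch point to the isoprenoids. Its RNA was 222 and 252 CPM in WT-shSCR, 216 and 224 CPM in cells labelled WT-shARF, and 311 and 325 CPM in Arf-/- shSCR. Footprints were 206 and 244, 238 and 232, and 291 and 311 CPM. The Arf-/- shSCR libraries were again the highest, with little spread between replicates. Footprints rose by 0.44 ± 0.11 (adjusted p = 0.00464), and the RNA change of 0.42 ± 0.15 had an adjusted p of 0.0929, which became 0.0494 when all 3 groups shared one fit.

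Fdft1 (chr14:63145150-63179578) encodes squalene synthase, the first step committed to sterols. Its RNA was 81.8 and 77.8 CPM in WT-shSCR, 45.3 and 60.1 CPM in cells labelled WT-shARF, and 94.1 and 107 CPM in Arf-/- shSCR. Footprints were 76.9 and 71.1, 49.6 and 68.1, and 103 and 109 CPM. The 3 groups did not overlap in either assay, with the libraries labelled WT-shARF lowest and Arf-/- shSCR highest. Footprints rose in Arf-/- shSCR by 0.53 ± 0.15 (adjusted p = 0.0101), beside 0.33 ± 0.19 in RNA (adjusted p = 0.321).

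Sqle (chr15:59315077-59331192) encodes squalene epoxidase, an oxygen-dependent step often described as rate-limiting. Its RNA was 47.3 and 61.0 CPM in WT-shSCR, 66.9 and 59.1 CPM in cells labelled WT-shARF, and 84.6 and 74.3 CPM in Arf-/- shSCR. Footprints were 85.8 and 77.5, 96.6 and 84.7, and 88.3 and 122 CPM, so that replicate 1 of Arf-/- shSCR lay among the other groups. Neither change passed the test, at 0.57 ± 0.21 in RNA (adjusted p = 0.114) and 0.38 ± 0.16 in footprints (adjusted p = 0.101). Sqle footprints passed without Arf-/- shSCR replicate 1, where the change was 0.60 (adjusted p = 0.034).

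Lss (chr10:76531588-76557138) encodes lanosterol synthase, which closes the sterol rings. Its RNA was 30.3 and 31.1 CPM in WT-shSCR, 30.2 and 30.4 CPM in cells labelled WT-shARF, and 49.4 and 47.5 CPM in Arf-/- shSCR. Footprints were 49.3 and 34.8, 43.8 and 47.4, and 68.1 and 68.8 CPM. The Arf-/- shSCR replicates were nearly equal and above all 4 others in both assays. Footprints rose by 0.71 ± 0.19, or 1.63-fold (adjusted p = 0.00673), and the RNA change was 0.66 ± 0.24 (adjusted p = 0.1).

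Cyp51 (chr5:4081145-4104746) encodes lanosterol demethylase, a cytochrome P450 that starts the trimming of lanosterol. Its RNA was 82.2 and 112 CPM in WT-shSCR, 90.6 and 100.4 CPM in cells labelled WT-shARF, and 137 and 139 CPM in Arf-/- shSCR. Footprints were 125 and 151, 148 and 152, and 174 and 211 CPM. Both Arf-/- shSCR libraries were above all others in each assay. Footprints rose by 0.50 ± 0.13 (adjusted p = 0.00681), and the RNA change was 0.52 ± 0.19 (adjusted p = 0.098).

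**Figure D2:**
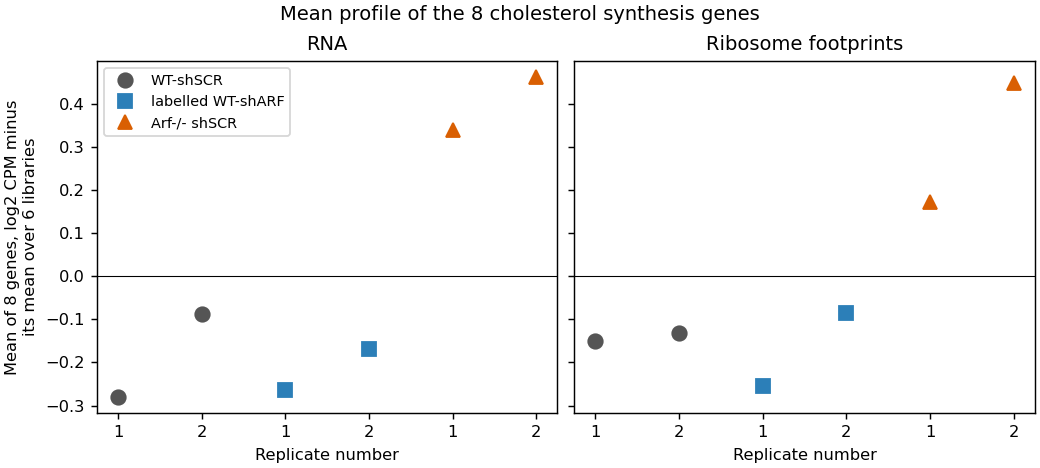
Mean over the 8 genes of log2 CPM, centred on the 6 libraries of each assay, for each library in RNA (left) and footprints (right). The Arf-/- shSCR libraries lie at 0.34 and 0.46 in RNA and at 0.17 and 0.45 in footprints, and the other 8 libraries between -0.28 and -0.08.

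The number of calls rested on single libraries. Without WT-shSCR replicate 1 or replicate 2, the footprint test called 0 of the 8 genes and 0 of all genes (11391 and 11340 tested), with 3 and 5 of the 8 at an unadjusted p under 0.05, beside 21.7% and 22.5% of all genes. Without Arf-/- shSCR replicate 2 it also called 0 of the 8, with 5 of the 8 at an unadjusted p under 0.05 beside 20.9% of all genes, while 1164 of all genes were called. The RNA call was likewise lost without either WT-shSCR library. The median footprint change over the 8 stayed between 0.38 and 0.62 with 1 library left out. The median RNA change ran from 0.37 without WT-shSCR replicate 1 to 0.72 without WT-shSCR replicate 2, so its size depended on the control library. The cell type markers moved in the same comparison: 8 of 10 macrophage markers fell in RNA and 9 of 9 tested fell in footprints, with medians of -2.97 and -3.56, where 3.99% and 8.95% of all genes fell. Of the mesothelial or epithelial markers tested, 4 of 7 rose in RNA and 6 of 7 in footprints, where 3.94% and 9.57% of all genes rose. Of the fibroblast markers tested, 2 of 9 rose and 1 fell in RNA, and 4 of 10 rose and 3 fell in footprints, beside the same shares. The footprint sum of the fibroblast markers was 49565 and 46957 CPM in WT-shSCR and 36710 and 36823 CPM in Arf-/- shSCR. The part of these markers in the changes of the 8 genes was not tested.

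Cells labelled WT-shARF were compared with WT-shSCR for the same question at the level of the shRNA. No gene of the 8 passed the test. In RNA 0 of 8 were called where 7.28% of all genes were, in footprints 0 of 8 where 11.1% were. DESeq2 also called 0, with an adjusted p for 7 of 8 RNAs, Idi1 being without one, and for 8 of 8 footprint levels. At an unadjusted p under 0.05 edgeR gave 1 RNA, that of Fdft1, and no footprint level, beside 21.1% and 23.5% of all genes. The median log2 fold change was -0.01 in RNA and 0.03 in footprints, with 3 of 8 RNAs and 4 of 8 footprint levels above 0.

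Fdft1 had the largest of these changes, -0.58 ± 0.19 in RNA (adjusted p = 0.0636) and -0.31 ± 0.19 in footprints (adjusted p = 0.324), and the RNA change passed with a replicate block (adjusted p = 0.0357). For Hmgcs1 the 95% interval of the footprint change ran from -0.36 to 0.09, for Fdps from -0.16 to 0.29 and for Cyp51 from -0.14 to 0.39. The intervals for Mvd, from -0.64 to 0.62, and for Lss, from -0.33 to 0.56, were wider and both still held a rise of 0.5 on the log2 scale. In this comparison 3 of 10 macrophage markers fell in RNA and 5 of 9 tested fell in footprints, where 4.17% and 5.5% of all genes fell, and their part was not tested.

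The direct comparison of Arf-/- shSCR with the cells labelled WT-shARF tests whether the genes differed between the groups without going through the shared control. All 8 changes were above 0 in both assays, with a median of 0.54 in RNA and 0.47 in footprints. In footprints 5 of 8 were higher, where 3.93% of all genes were: Fdft1 by 0.84 ± 0.16 (adjusted p = 0.00207), Idi1 by 0.71 ± 0.14 (0.004), Hmgcs1 by 0.58 ± 0.13 (0.00854), Lss by 0.59 ± 0.16 (0.0278) and Fdps by 0.36 ± 0.09 (0.0164). In RNA 2 of 8 were higher, where 1.38% of all genes were: Fdft1 by 0.90 ± 0.19 (adjusted p = 0.0229) and Fdps by 0.52 ± 0.13 (0.0448). Both Arf-/- shSCR libraries were above both libraries labelled WT-shARF for 8 of 8 RNAs and 6 of 8 footprint levels, beside 23.6% and 25.2% of all genes.

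The footprints of Cyp51 differed by 0.36 ± 0.11 with an adjusted p of 0.0575, just outside the threshold, and those of Sqle by 0.22 ± 0.15 (adjusted p = 0.449). Idi1 RNA differed by 0.97 ± 0.27, or 1.96-fold (adjusted p = 0.084). Without replicate 1 or replicate 2 of the libraries labelled WT-shARF, the median change over the 8 was 0.46 and 0.64 in footprints. In RNA it was 0.58 and 0.59. The calls were lost in these fits, for the 8 genes and for most of all genes called in the main fits. With a single library left in a group, that loss is no result about the 8 genes. Without Arf-/- shSCR replicate 2 there were 2 footprint calls, Idi1 and Fdft1, and 1 RNA call, Fdft1, and Hmgcs1 footprints were then 0.27 higher (adjusted p = 0.206). With DESeq2 there were 3 footprint calls, Idi1, Fdps and Fdft1. Of the macrophage markers tested, 4 of 9 were lower in RNA and 7 of 9 in footprints, where 1.19% and 4.3% of all genes were lower. All 7 mesothelial or epithelial markers tested had higher footprints, where 3.93% of all genes did, and the part of either marker list was not tested.

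**Figure D3:**
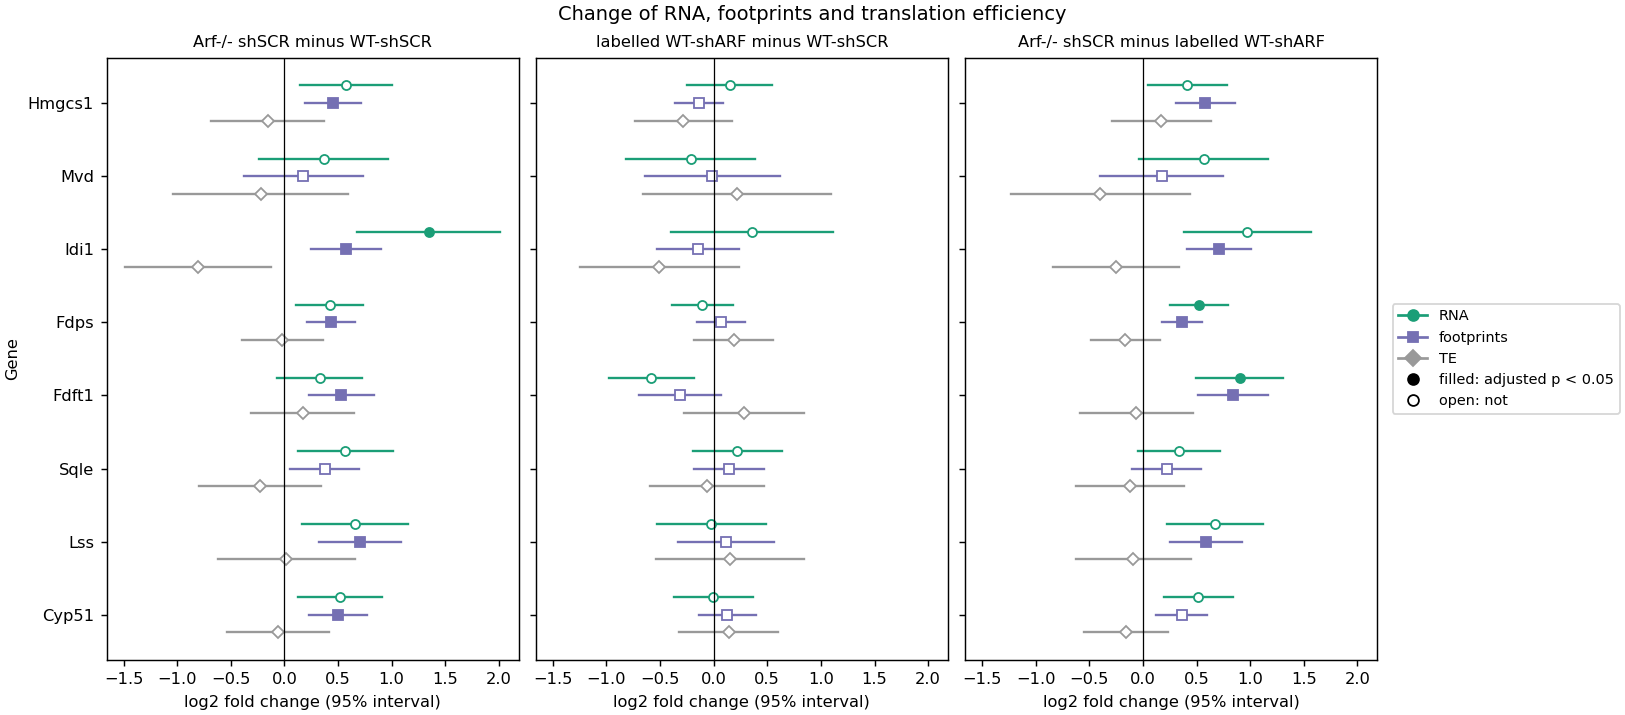
Fitted log2 fold change with its 95% interval for RNA, footprints and translation efficiency (TE) of each gene in the 3 comparisons, filled where the adjusted p was under 0.05. RNA and footprints of all 8 genes lie right of 0 in the left and right panels, and no marker is filled in the middle panel.

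Translation efficiency (TE) is the ratio of footprints to RNA, and its change was tested as the interaction of assay and condition. None of the 8 genes passed: 0 of 8 in Arf-/- shSCR against WT-shSCR where 0.194% of all genes were called, 0 of 8 in the cells labelled WT-shARF against WT-shSCR where 0.0354% were, and 0 of 8 between Arf-/- shSCR and WT-shARF where 0.043% were. DESeq2 called 0 as well, but it gave an adjusted p for 0, 0 and 5 of the 8 genes in that order, and 0 of 8 had an unadjusted p under 0.05 by DESeq2 in each. The median TE change over the 8 was -0.11, 0.14 and -0.14 in that order. At an unadjusted p under 0.05 edgeR gave 1 gene over the 3 comparisons, Idi1 in Arf-/- shSCR against WT-shSCR, with a TE change of -0.81 ± 0.33 (95% interval -1.48 to -0.13, unadjusted p = 0.0221, adjusted p = 0.591), where 6.83% of all genes were under it. For the other 7 genes in that comparison the TE change ran from -0.23 to 0.17, and the intervals were wide, as that of Hmgcs1 from -0.68 to 0.37 shows.

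The genes differed more among themselves in TE than between groups. In WT-shSCR, Idi1 had a log2 ratio of footprint to RNA CPM of 2.31 and Hmgcs1 of 1.69, at the 99.3 and 97.3 percentile of 10997 genes. Sqle at 0.59, Cyp51 at 0.51 and Lss at 0.45 followed, and Fdps at -0.08, Mvd at -0.10 and Fdft1 at -0.11 lay near the middle of all genes, whose median was -0.07. Hmgcs1 and Idi1 kept the top places in Arf-/- shSCR at 1.57 and 1.56, and at 1.43 and 1.85 in the cells labelled WT-shARF. Both assays were counted on coding sequences, so the length cancels in the ratio. The places of Idi1 and Hmgcs1 are uncertain because 79.6% and 32.3% of their coding words are shared with other transcripts. The ratio is a level relative to the other mRNAs of the library and no absolute rate.

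**Figure D4:**
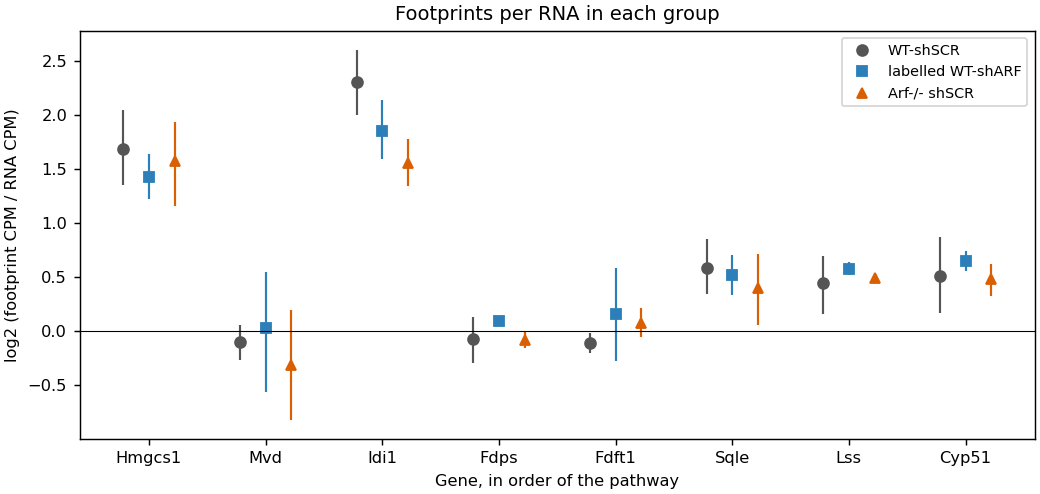
Log2 ratio of mean footprint CPM to mean RNA CPM of each gene in each group; vertical lines span the 4 pairings of a footprint library with an RNA library. Hmgcs1 and Idi1 lie at 1.43 or above in all groups, where the highest of the other 6 genes is at 0.65.

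Other genes of sterol and lipid metabolism were taken from lists chosen by pathway. Of 11 other enzymes of sterol synthesis, 0 were called in RNA or in footprints in Arf-/- shSCR against WT-shSCR. Of all genes 7.93% and 18.5% were called there. In each assay 8 of 11 were above 0, with medians of 0.24 and 0.14. At an unadjusted p under 0.05 by edgeR 1 RNA was higher, that of Msmo1, beside 11% of all genes. At that level 1 footprint level was lower, that of Tm7sf2 (-1.46 ± 0.65, adjusted p = 0.122), beside 1594 of 10737 genes. Tm7sf2 was singled out after its values were seen. In the cells labelled WT-shARF against WT-shSCR, 8 of these 11 RNAs were below 0 with a median of -0.34. Of the RNAs 1 fell, beside 4.17% of all genes, and 4 were lower at an unadjusted p under 0.05, beside 1189 of 10503 genes. Footprint levels were below 0 for 6 of 11, with a median of -0.05, and 1 of 11 fell, beside 5.5% of all genes. Between Arf-/- shSCR and the cells labelled WT-shARF, 10 of 11 RNAs were above 0 with a median of 0.45. There 1 of 11 RNAs and 1 of 11 footprint levels were higher, beside 1.38% and 3.93% of all genes. The gene of each of these calls was Msmo1, the sterol methyl oxidase that acts after Cyp51. Its RNA was 92.4 and 86.3 CPM in WT-shSCR and 43.7 and 57.5 CPM in the cells labelled WT-shARF, a log2 change of -0.80 ± 0.19 (adjusted p = 0.0077). Its footprints fell by 0.47 ± 0.13 on the log2 scale (adjusted p = 0.0199), and Arf-/- shSCR exceeded the cells labelled WT-shARF by 1.28 in RNA (adjusted p = 0.00228) and 0.66 in footprints (adjusted p = 0.00149). By fitted RNA changes Msmo1 thus had the order of groups seen in Fdft1, with Arf-/- shSCR above WT-shSCR at an unadjusted p only.

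Of 8 genes of sterol sensing and SREBP processing, edgeR called 0 in each of the 9 tests of RNA, footprints and TE. Of all genes, the tests called 2.57% to 7.93% in RNA, 8.23% to 18.5% in footprints and 0.0354% to 0.194% in TE. With 8 genes, a count of 0 is thus near the share of all genes. At an unadjusted p under 0.05 there were 2 RNAs higher in Arf-/- shSCR against WT-shSCR, Insig1 and Stard4, beside 11% of all genes. Against the cells labelled WT-shARF 3 footprint levels were higher in Arf-/- shSCR at that level, beside 1152 of 10941 genes. They were those of Insig1, Stard4 and Mbtps2, the last being named after its values were seen. Srebf2, the SREBP-2 gene, had a change of 0.24 ± 0.16 in RNA (adjusted p = 0.416) and -0.03 ± 0.13 in footprints (adjusted p = 0.922) in Arf-/- shSCR against WT-shSCR. Srebf1, whose products act more on fatty acid genes, had changes of 0.22 ± 0.16 and -0.08 ± 0.14, and Scap of 0.12 ± 0.18 and -0.43 ± 0.27. Insig1, itself an SREBP target that restrains SCAP, was at 36.3 and 41.5 CPM of RNA in WT-shSCR and at 55.7 and 58.7 CPM in Arf-/- shSCR, with no overlap, a change of 0.56 ± 0.22 (adjusted p = 0.139). Insig2 was near 0 at -0.02 ± 0.47, with few counts. Stard4, a sterol carrier, had the largest RNA change of this list, 1.00 ± 0.43 (adjusted p = 0.167).

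The isoprenoid branch, which uses the product of Fdps, had 0 of 11 RNAs called in Arf-/- shSCR against WT-shSCR, beside 7.93% of all genes. Of its footprint levels 2 of 11 were higher, beside 9.57% of all genes. They were those of Pdss1, of ubiquinone side chain synthesis (1.12 ± 0.37, adjusted p = 0.032), and Rce1, a protease that trims prenylated proteins (0.76 ± 0.27, adjusted p = 0.0453). The medians were -0.03 in RNA and 0.12 in footprints. At an unadjusted p under 0.05 by edgeR 2 RNAs were higher, beside 11% of all genes. In footprints 3 were higher and 2 lower at that level, beside 1623 and 1594 of 10737 genes. In fatty acid synthesis edgeR called 0 of 10 RNAs, beside 7.93% of all genes. At an unadjusted p under 0.05, 2 of these RNAs were higher, beside 11% of all genes. Of 10 footprint levels 3 were higher, beside 9.57% of all genes, with a list median of 0.08 in each assay. They were those of Acaca (0.41), which makes malonyl-CoA, the elongase Elovl6 (0.72) and the desaturase Fads2 (0.46). In the cells labelled WT-shARF 3 of 10 footprint levels were higher too, those of Acaca (0.45), Fads1 (0.55) and Fads2 (0.61). RNA of Fads2 (0.78) also rose there, where 5.63% of footprint levels and 3.11% of RNAs of all genes rose. Elovl6 footprints were higher in Arf-/- shSCR than in the cells labelled WT-shARF, by 1.39 ± 0.24 (adjusted p = 0.00117). Of the genes of sterol efflux, esterification and transport, 2 of 8 RNAs tested and 3 of 7 footprint levels tested fell in Arf-/- shSCR, beside the 3.99% and 8.95% of all genes given above. Abca1, the cholesterol exporter, fell by 1.25 ± 0.33 in RNA (adjusted p = 0.023) and by 1.82 ± 0.27 in footprints (adjusted p = 5.73e-06), on the log2 scale. Its RNA was 28.8 and 28.5 CPM in WT-shSCR and 13.2 and 10.8 CPM in Arf-/- shSCR. Npc1 and Npc2 act in cholesterol exit from the lysosome. Npc1 footprints changed by -0.83, Npc2 RNA by -0.75 and Npc2 footprints by -0.67, each past the test. In the cells labelled WT-shARF, Npc2 RNA fell (-0.83) and 4 of 7 footprint levels tested fell, those of Abca1 (-0.87), Soat1 (-0.42), Npc1 (-0.75) and Npc2 (-0.52), beside 5.5% of all genes. Macrophages express several of these transport genes, and macrophage markers fell in the same comparisons, and their part was not tested.

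**Figure D5:**
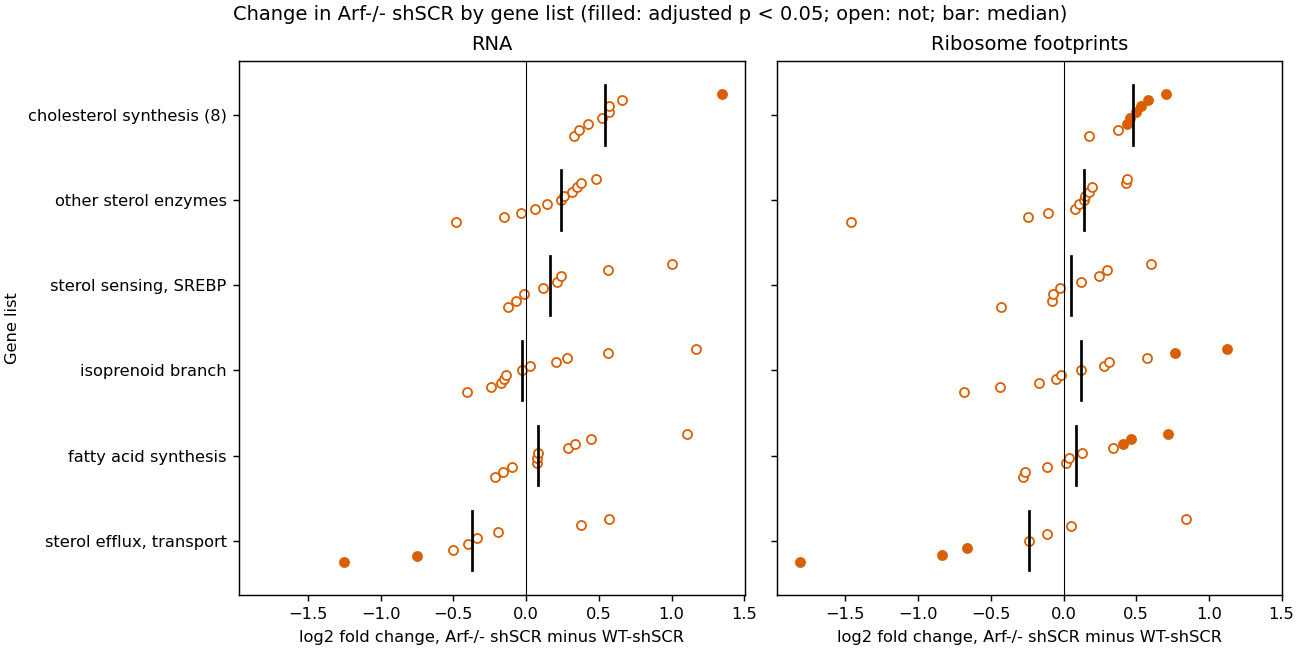
Fitted log2 fold change of each tested gene in Arf-/- shSCR against WT-shSCR by list, for RNA (left) and footprints (right); filled points had an adjusted p under 0.05 and bars mark medians. The 8 cholesterol synthesis genes lie wholly right of 0 in both panels, with 1 filled point in RNA and 6 in footprints.

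The 8 genes also resembled one another across the 12 libraries, each centred within its assay. All 28 pairwise Pearson correlations were above 0, from 0.32 to 0.96 with a median of 0.72, as a description over libraries that share the 3 groups. Against the mean of the other 7, Fdps had an r of 0.93, Cyp51 of 0.91, Idi1 of 0.90, Hmgcs1 of 0.88, Lss of 0.85, Fdft1 of 0.74, Sqle of 0.71 and Mvd of 0.58. In that order they ranked 7, 12, 16, 34, 55, 321, 367 and 956 when set among the genes outside the 8. Many genes outside the 8 thus followed the others more closely than Fdft1, Sqle and Mvd did. Among 8223 genes with at least 10 counts in every library, the 10 outside the list whose profile was most like the mean of the 8 were Eif3e, Rttn, Pkdcc, Bzw1, Ifrd1, Trim28, Fbln1, Ezr, Pes1 and Rbbp7, with r from 0.97 to 0.92. None of these belongs to the lists of sterol or lipid genes. Of those lists, Insig1 came nearest, with an r of 0.85 and rank 66 among the genes outside the 8, followed by Msmo1 with an r of 0.74 and rank 288.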

How the data were processed

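RNA and ribosome footprints were measured in 3 groups of MEFs with 2 replicates each. For RNA, total RNA was fragmented and pieces of 17 to 34 nt were sequenced, as for footprints. The authors took off molecular identifiers with UMI-tools and barcodes with cutadapt, removed rRNA and other noncoding RNA with Bowtie2 and aligned the rest by TopHat to mm10. HTSeq then assigned reads to annotated coding sequence. Removal of duplicates by identifier is not given in the sources used here, and tool versions are not either. The deposited files hold unnormalized counts, 1 row per gene symbol. The 5 summary rows of each file stayed out. They held 94.7% to 96.8% of all counts in an RNA library and 57.1% to 64.8% in a footprint library, mostly alignments that were not unique. What share of reads this stands for was not measured.

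Changes were fitted with edgeR 4.0.16 (R 4.3.3; TMM, filterByExpr, quasi-likelihood F test, two-sided) over 4 libraries, or 8 for TE, without a replicate block, with Benjamini-Hochberg adjustment over all genes and a threshold of 0.05. The SE is the log2 fold change divided by the root of F. The procedure was tested on simulated counts. DESeq2 1.42.0, other scalings and filters, a fit of all groups, a replicate block and leaving out each library were alternatives. CPM used TMM factors within an assay, likeness used log2 CPM with a prior count of 2, and the ratio of footprints to RNA used CPM plus 0.5. Coordinates and coding lengths come from GENCODE M21 (GRCm38) and promoters from RefSeq. Python 3.11.15 was used.

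The members and lists were chosen with earlier results of these data known. Named genes were the members, 6 genes of sterol sensing, other listed genes past the threshold in any test, and the 10 most alike in profile. Tm7sf2 and Mbtps2 fall outside this rule and were named after their values were seen. Some genes of this pathway are not reported here.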

Additional observations from a re-analysis of the deposited data

Results flagged for a closer look

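The change in Arf-/- shSCR and that in the cells labelled WT-shARF, both against WT-shSCR, differed for 7 results by the direct edgeR test between the 2 groups. In footprints the difference was 0.84 on the log2 scale for Fdft1, 0.71 for Idi1, 0.59 for Lss, 0.58 for Hmgcs1 and 0.36 for Fdps. In RNA it was 0.90 for Fdft1 and 0.52 for Fdps. For each of the 7, both Arf-/- shSCR libraries lay above both libraries labelled WT-shARF. The 7 calls were lost without replicate 1 or without replicate 2 of the libraries labelled WT-shARF, as were most calls over all genes. A test for 1 value far from the rest of its group was not made, as it needs more than 2 libraries.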

How the results depend on the processing

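No call reversed under any alternative. Counts of members called by edgeR that differed by over 1.5 times were few apart from the fits that left out a library. In RNA, Arf-/- shSCR against WT-shSCR gave 2 in place of 1 when all 3 groups shared a fit, and Arf-/- shSCR against the cells labelled WT-shARF gave 1 in place of 2 with library totals alone. In footprints the latter comparison gave 3 in place of 5 with DESeq2. With 1 library left out, against WT-shSCR the RNA calls in Arf-/- shSCR ranged from 0 to 1 and the footprint calls from 0 to 6, and against the cells labelled WT-shARF from 0 to 3 and from 0 to 5. The lone library was then assumed to vary like the group with 2. Fewer samples entered these fits. Calls over all genes fell to 0 in footprints of Arf-/- shSCR against WT-shSCR without either WT-shSCR library, but rose from 273 to 798 and 383 in RNA of Arf-/- shSCR against the cells labelled WT-shARF without Arf-/- shSCR replicate 1 or 2. All 8 RNA changes in Arf-/- shSCR stayed above 0 in 13 of 13 alternatives against either group, and all 8 footprint changes in 11 of 12 against WT-shSCR and 10 of 12 against the cells labelled WT-shARF, the exceptions being Mvd and, once, Sqle.

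Replicate numbers were shared across groups, and the deviations of same-numbered libraries had correlations between -0.02 and 0.03 over all genes. Over genes with at least 30 counts in every library of the assay the correlations ran from -0.12 to 0.05. They were -0.12 for RNA of Arf-/- shSCR with either other group. Whether same-numbered or differently numbered libraries shared a batch was not tested. The replicate block gave 1 RNA call in place of 0 in the cells labelled WT-shARF against WT-shSCR, and 1 in place of 2 in RNA of Arf-/- shSCR against the cells labelled WT-shARF. In an alternative chosen after seeing the data, a block with the Arf-/- numbers crossed gave 4 RNA calls against WT-shSCR and 5 against the cells labelled WT-shARF. Library totals alone moved the median log2 change of all genes in the cells labelled WT-shARF against WT-shSCR to 0.13 in RNA and -0.12 in TE. There, library totals turned the calls over all genes from 327 higher of 765 to 633 higher of 915, and in RNA of Arf-/- shSCR against the cells labelled WT-shARF from 147 of 273 to 143 of 380. In TE of Arf-/- shSCR against WT-shSCR, 10 of 22 calls were higher, but 62 of 75 with DESeq2, 38 of 52 with all groups in a fit, 83 of 123 with no filter and 15 of 27 with RLE factors.

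Calls over all genes moved by over 1.5 times under several settings. With DESeq2 they went from 845 to 467 and from 1988 to 1305 in RNA and footprints of Arf-/- shSCR against WT-shSCR, from 765 to 318 in RNA of the cells labelled WT-shARF, and in TE from 22 to 75, from 4 to 50 and from 5 to 18. With no filter on low counts TE calls were 123, 40 and 77, and RNA calls between Arf-/- shSCR and the cells labelled WT-shARF were 617 in place of 273. With at least 10 counts in every library the first 2 TE comparisons gave 34 and 13, and with all groups in a fit 52 and 0, beside 497 RNA calls in the cells labelled WT-shARF against WT-shSCR. In TE of that comparison library totals and factors without ribosomal protein genes each gave 2 and the replicate block 39, and the block gave 8 between Arf-/- shSCR and the cells labelled WT-shARF. The crossed block gave 1438 and 832 in RNA. The cause of these moves was not tested. Depth limited the RNA of Idi1 and Mvd most, with as few as 22 and 36 counts in a library.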
